A study of Mus musculus with 6 samples.

Results

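The NF-κB family was followed through 10 genes, chosen by name from the NF-κB subunits and the proteins that restrain them. They are the 5 subunits *Nfkb1*, *Nfkb2*, *Rel*, *Rela* and *Relb*, the cytoplasmic inhibitors *Nfkbia*, *Nfkbib* and *Nfkbie*, the nuclear inhibitor protein *Nfkbid*, and the feedback enzyme *Tnfaip3*. The deposited table lists 56748 mouse genes, and all 10 were found in it by symbol and passed the filter on low counts. RNA-seq libraries were made from unsorted cells that had started as naïve CD4+ T cells of wild-type (WT) C57BL/6 mice, aged 6 to 10 weeks. The cells grew for 3 days on anti-CD3 with anti-CD28, IL-2, TGF-β and antibodies to IFNγ and IL-4, which are Treg polarizing conditions. Antisense oligonucleotides (ASOs), which pair with an RNA of complementary sequence, were present at 10 μM from the start. There were 3 libraries labelled scrambled ASO, the control sequence, and 3 labelled *Pgam* ASO, aimed at the glycolytic enzyme phosphoglycerate mutase. The study calls them biological replicates, and the sources used here do not say whether each came from its own mouse, so p-values measure the spread between these libraries, which may be technical in part.

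NF-κB proteins are dimers of subunits that share a DNA-binding Rel homology domain. In resting cells, IκB proteins hold the dimers in the cytoplasm. Engagement of the T cell receptor or of TNF family receptors activates the IκB kinase, IκB is degraded, and the freed dimers turn on genes that include those of their own inhibitors. In CD4+ T cells this pathway drives activation and cytokine genes, and c-Rel, the product of *Rel*, is known for its part in switching on *Foxp3* in developing Tregs.

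Total counts were 17588755, 18032805 and 16231127 (labelled scrambled ASO, replicates 1 to 3) and 16589933, 15860476 and 16803881 (labelled *Pgam* ASO). Expression is given as CPM, which scales each library's counts to a common TMM-normalized total, and a fold change below 0 on the log2 scale means a lower level under the *Pgam* ASO label. A gene is called where edgeR's quasi-likelihood test gave an adjusted p under 0.05 over the 14936 genes tested. The targeted transcripts were looked at first. *Pgam1* (ENSMUSG00000011752, chr19:41911923-41918660) had 599.6, 478 and 707 CPM (labelled scrambled ASO, replicates 1 to 3) and 658, 661 and 707 CPM (labelled *Pgam* ASO). The groups overlapped, and the mean was not lower in the libraries labelled *Pgam* ASO (log2 fold change 0.18, standard error 0.13, edgeR adjusted p = 0.331). With each library left out in turn, the log2 fold change of *Pgam1* ran from 0.047 to 0.33 (edgeR adjusted p from 0.0528 to 0.793). Its counts are uncertain, since 37.1% of its 31-base stretches also occur in the pseudogene *Pgam1-ps2*. *Pgam2*, the muscle form, had 5.23, 6.75 and 2.85 CPM (labelled scrambled ASO, replicates 1 to 3) and 2.98, 2.69 and 2.60 CPM (labelled *Pgam* ASO). Replicate 3 labelled scrambled ASO lay within the range of the other group, and the difference was not called (log2 fold change -0.84, standard error 0.31, edgeR adjusted p = 0.0854). Without that library the edgeR adjusted p for *Pgam2* was 0.0144, and with no filter on low counts it was 0.0292. Since neither targeted transcript was called lower with all libraries and the filter on low counts, groups are named by their labels throughout.

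In the libraries labelled *Pgam* ASO, 5 of the 10 members were called lower (*Rel*, *Rela*, *Relb*, *Nfkbie* and *Tnfaip3*), against 9.15% of all tested genes. Called higher were 0 of 10, against 8.03% of all tested genes, and DESeq2 and an unadjusted edgeR p under 0.05 also gave 0. In 6 of the 10, every library labelled *Pgam* ASO lay below every library labelled scrambled ASO, a pattern found in 19.8% of all tested genes. The opposite pattern was seen in 0 of 10 members and in 19.6% of tested genes. The median log2 fold change was -0.23 over the members and -0.01 over all tested genes. *Rel* had the largest change and was the member whose call held with each library left out in turn. The count of members called lower was 1 without replicate 2 labelled *Pgam* ASO, and 2 without any one of replicates 1 and 2 labelled scrambled ASO or 1 and 3 labelled *Pgam* ASO. Over all genes, calls in either direction went from 2565 to 391 without replicate 2 labelled *Pgam* ASO. They were 620 and 1256 without replicates 1 and 2 labelled scrambled ASO, and 871 and 3319 without replicates 1 and 3 labelled *Pgam* ASO. Members called lower also numbered 2 with no filter on low counts, since the edgeR adjusted p was 0.0696 for *Rela*, 0.0683 for *Relb* and 0.0577 for *Nfkbie*. With replicate number as a block the count was 2 again (edgeR adjusted p = 0.106 for *Rela*, 0.0947 for *Relb* and 0.106 for *Nfkbie*). These are bulk libraries of unsorted cells, in which fewer cells expressing a gene and less RNA per cell cannot be told apart.

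**Figure D1:**
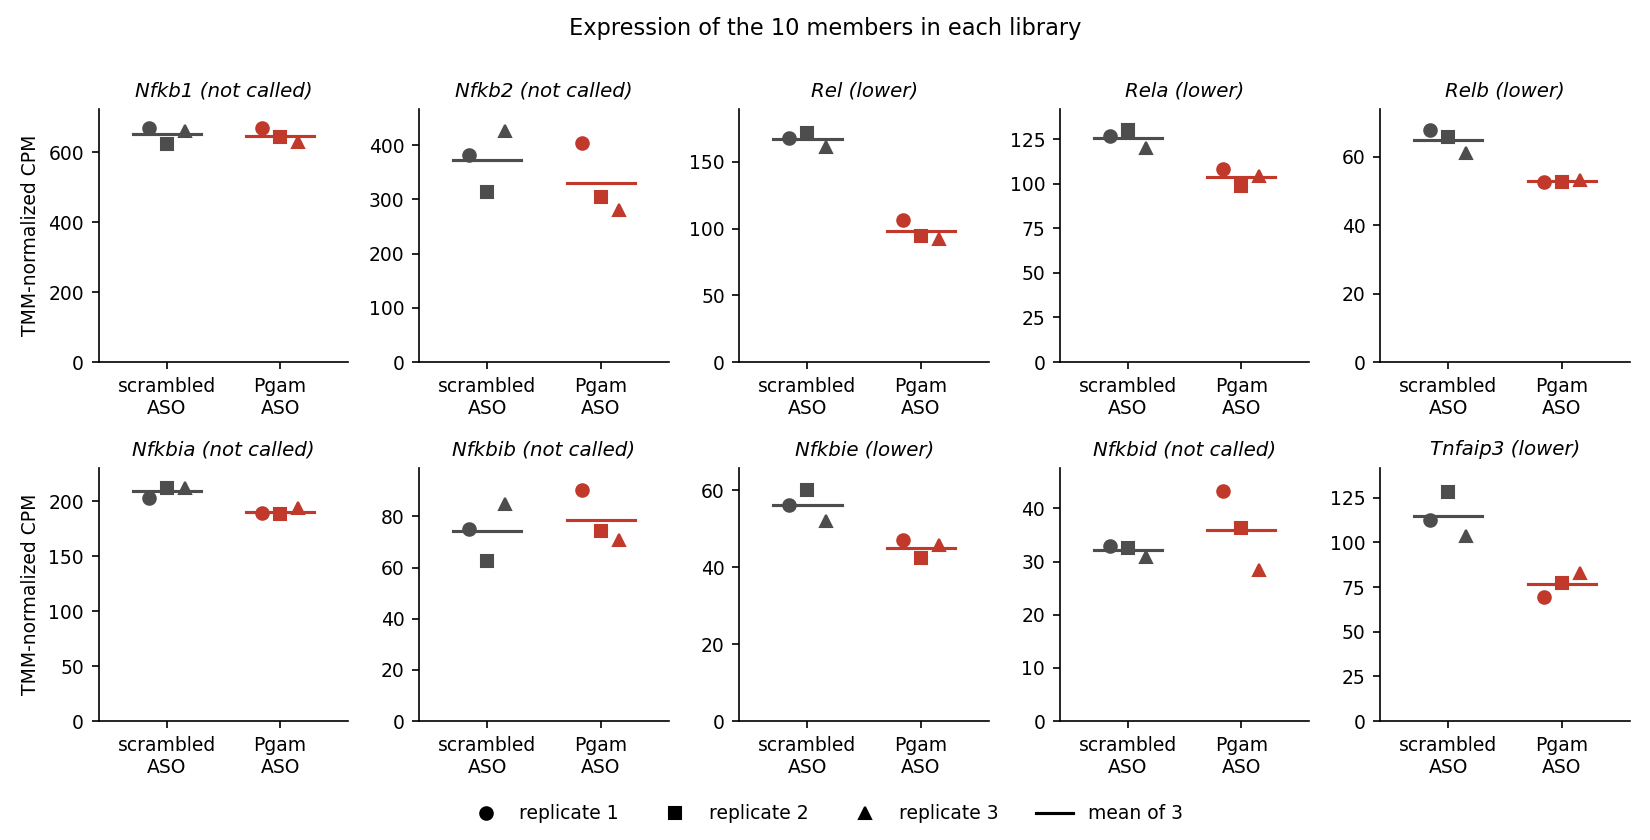
TMM-normalized CPM (y axis, from 0) of each member in each library, by label on the x axis, with 1 point per library and a line at the mean of 3. *Rel* and *Tnfaip3* show the widest gaps between the groups, while *Nfkb1* sits between 625 and 668 CPM in all 6 libraries.

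Because NF-κB is known to act on the genes of its own family, the members' promoters were searched for its binding motif. RefSeq promoter windows on GRCm38.p6, from 250 bases before the start site to 50 from it on, were used for the 8 members with an entry (*Nfkb2*, *Rel*, *Rela*, *Nfkbia*, *Nfkbib*, *Nfkbie*, *Nfkbid* and *Tnfaip3*). The κB consensus motif of 10 bases was found on either strand in 6 of these 8. It was found in 5.14% of the 27025 genes with a window and in 9 of 32 (28.1%) of the other pathway genes with one. A gene counted if any of its windows held a match, and *Nfkb2* and *Nfkbid* had 3 windows each and *Tnfaip3* 2. Of all 32851 windows, 4.51% held the consensus motif. In a looser form, GGGNNNNNCC, of which the consensus is a special case, it was found in 7 of 8 members, in 78.1% of those pathway genes and in 53.5% of all genes. Of the members called lower that had a window, 3 of 4 held the consensus, and of those not called, 3 of 4. *Rela* and *Nfkbib* had no consensus match in this window. A match describes the letters only, and binding was not measured. The stretches below, 30 bases each on the strand of the gene, are shown because they hold the matches of the called members *Rel*, *Nfkbie* and *Tnfaip3* beside 1 or more of *Nfkbia*, *Nfkb2* and *Nfkbid*, which were not called, with the match in capitals and its distance from the start site in bases.
Rel at -92 to -82, chr11:23771041-23771070, minus strand: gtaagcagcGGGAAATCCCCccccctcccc
Nfkbie at -106 to -97, chr17:45555584-45555613, plus strand: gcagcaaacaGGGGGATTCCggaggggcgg
Tnfaip3 at -125 to -116, chr10:19015516-19015545, minus strand: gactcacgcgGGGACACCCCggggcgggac
Tnfaip3 at -12 to -3, chr10:19015403-19015432, minus strand: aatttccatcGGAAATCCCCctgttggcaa
Nfkbia at -29 to -20, chr12:55492657-55492686, minus strand: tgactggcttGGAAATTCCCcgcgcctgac
Nfkb2 at -39 to -29, chr19:46304689-46304718, plus strand: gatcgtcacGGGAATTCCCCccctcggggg
Nfkb2 at -11 to -2, chr19:46304716-46304745, plus strand: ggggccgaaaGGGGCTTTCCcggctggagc
Nfkbid at -226 to -217, chr7:30422170-30422199, plus strand: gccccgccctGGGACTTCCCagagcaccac
Further matches, not printed, lie at -181 to -172 for *Nfkbid* and, for *Nfkb2*, at -236 to -227 and 10 to 19 from its next start site downstream. Both *Nfkbid* matches are measured from start site 2 of its 3, which lies inside the gene, and the windows of the other start sites held 0. The capitals of *Rel* and of the upstream *Nfkb2* stretch cover overlapping matches on both strands. The downstream *Tnfaip3* stretch and the *Nfkb2* stretches printed reach into annotated exons, while the others lie outside exons.

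**Figure D2:**
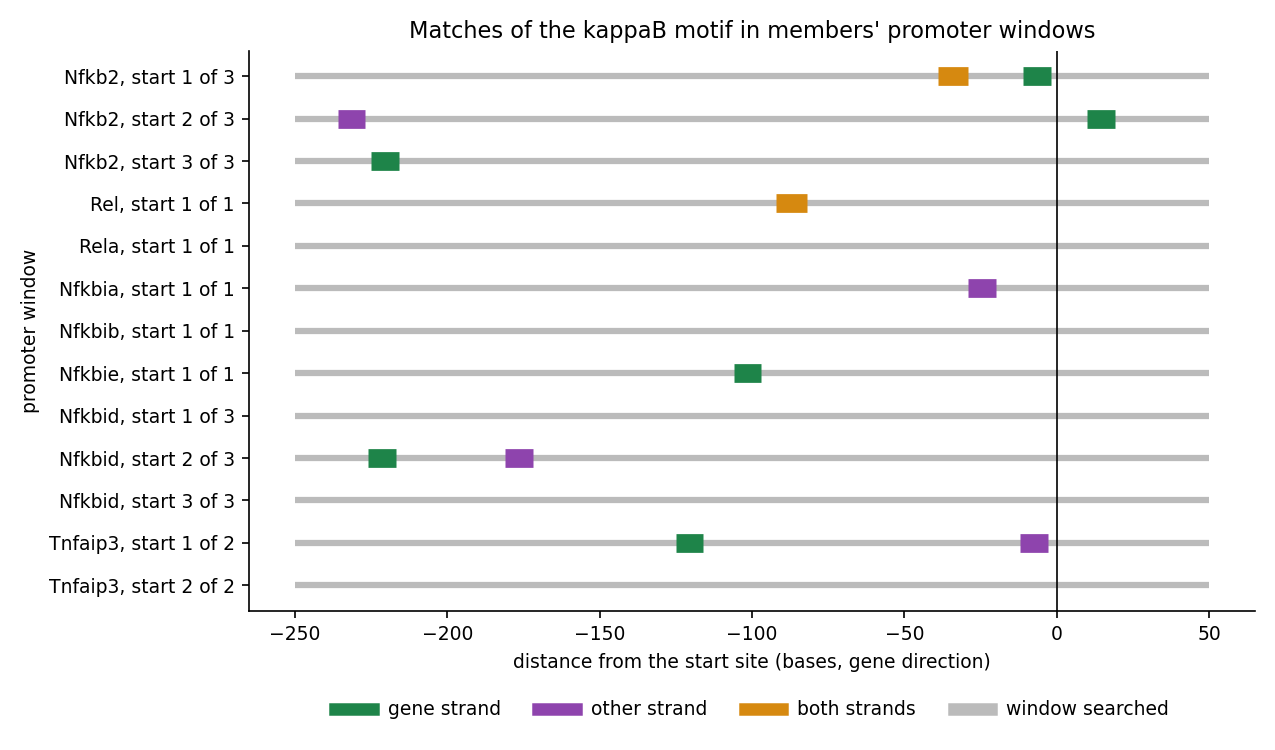
Position of each match of the κB consensus in the members' promoter windows (grey bars), with distance from the start site in bases on the x axis and 1 row per annotated start site. The match of *Nfkbia*, 1 of *Tnfaip3* and 1 of *Nfkb2* lie wholly within 30 bases before a start site, and *Rela* and *Nfkbib* have empty windows.

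Among the subunits, *Rel* (ENSMUSG00000020275, chr11:23736847-23770970) encodes c-Rel, which carries a domain that activates transcription. Its level was 168, 172 and 161 CPM (labelled scrambled ASO, replicates 1 to 3) and 107, 94.8 and 92.6 CPM (labelled *Pgam* ASO). All 3 libraries labelled *Pgam* ASO were well below all 3 labelled scrambled ASO, with a gap wider than the spread inside either group. *Rel* fell from 167 ± 5.55 to 98.0 ± 7.58 CPM (mean ± SD, n = 3 in each group), a change of -41.3%. The log2 fold change was -0.77 with a standard error of 0.09 (edgeR adjusted p = 0.000967). Its 95% confidence interval on the log2 scale was -0.96 to -0.58, and with each library left out in turn the log2 fold change ran from -0.83 to -0.72.

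*Rela* (ENSMUSG00000024927, chr19:5637483-5648130) encodes p65, the activating partner in the most studied NF-κB dimer. It had 127, 129.9 and 119.9 CPM (labelled scrambled ASO, replicates 1 to 3) and 108, 98.6 and 104 CPM (labelled *Pgam* ASO). The groups did not overlap, and the lowest control library was replicate 3. *Rela* fell from 126 ± 5.12 to 104 ± 4.74 CPM (mean ± SD, n = 3 in each group). The log2 fold change was -0.28 with a standard error of 0.08 (edgeR adjusted p = 0.0407). With each library left out in turn, the log2 fold change ran from -0.31 to -0.24, and the call was lost in most of these fits. The edgeR adjusted p for *Rela* was 0.139 without replicate 1 labelled scrambled ASO, 0.0919 without replicate 2 labelled scrambled ASO, 0.0835 without replicate 1 labelled *Pgam* ASO, 0.177 without replicate 2 labelled *Pgam* ASO and 0.0623 without replicate 3 labelled *Pgam* ASO.

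*Relb* (ENSMUSG00000002983, chr7:19606217-19629438) encodes the subunit that pairs with p52 in the alternative pathway. Its values were 67.8, 65.9 and 61.2 CPM (labelled scrambled ASO, replicates 1 to 3) and 52.7, 52.5 and 53.4 CPM (labelled *Pgam* ASO). The libraries labelled *Pgam* ASO differed from each other by under 1 CPM and lay below all controls. *Relb* fell from 65.0 ± 3.39 to 52.9 ± 0.445 CPM (mean ± SD, n = 3 in each group). The log2 fold change was -0.30 with a standard error of 0.08 (edgeR adjusted p = 0.0366). With a library left out, the log2 fold change ran from -0.34 to -0.27. The edgeR adjusted p for *Relb* was 0.146 without replicate 1 labelled scrambled ASO, 0.0786 without replicate 2 labelled scrambled ASO, 0.108 without replicate 1 labelled *Pgam* ASO, 0.140 without replicate 2 labelled *Pgam* ASO and 0.0548 without replicate 3 labelled *Pgam* ASO.

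*Nfkb1* (ENSMUSG00000028163, chr3:135584655-135691547) encodes p105, the precursor of p50, which binds DNA but has no activating domain. It was at 668, 625 and 661 CPM (labelled scrambled ASO, replicates 1 to 3) and 668, 642 and 628 CPM (labelled *Pgam* ASO). The groups overlapped and their means differed by less than the spread between replicates (log2 fold change -0.01, standard error 0.08, edgeR adjusted p = 0.933). The 95% confidence interval of its log2 fold change was -0.18 to 0.16, which leaves out a fall as large as that of *Rel*.

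*Nfkb2* (ENSMUSG00000025225, chr19:46304320-46312385) encodes p100, the precursor of p52. It had 382, 313 and 425 CPM (labelled scrambled ASO, replicates 1 to 3) and 404, 305 and 281 CPM (labelled *Pgam* ASO). Replicate 1 labelled *Pgam* ASO was as high as the controls, the other 2 of its group were lower, and the groups overlapped (log2 fold change -0.18, standard error 0.15, edgeR adjusted p = 0.434). With each library left out in turn, the log2 fold change ran from -0.35 to -0.07. The level of *Nfkb2* is uncertain in part, since 16.3% of its 31-base stretches occur elsewhere too, mainly in the overlapping *AC114539.1*, whose counts over the 6 libraries came to 2.77% of those of *Nfkb2*.

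**Figure D3:**
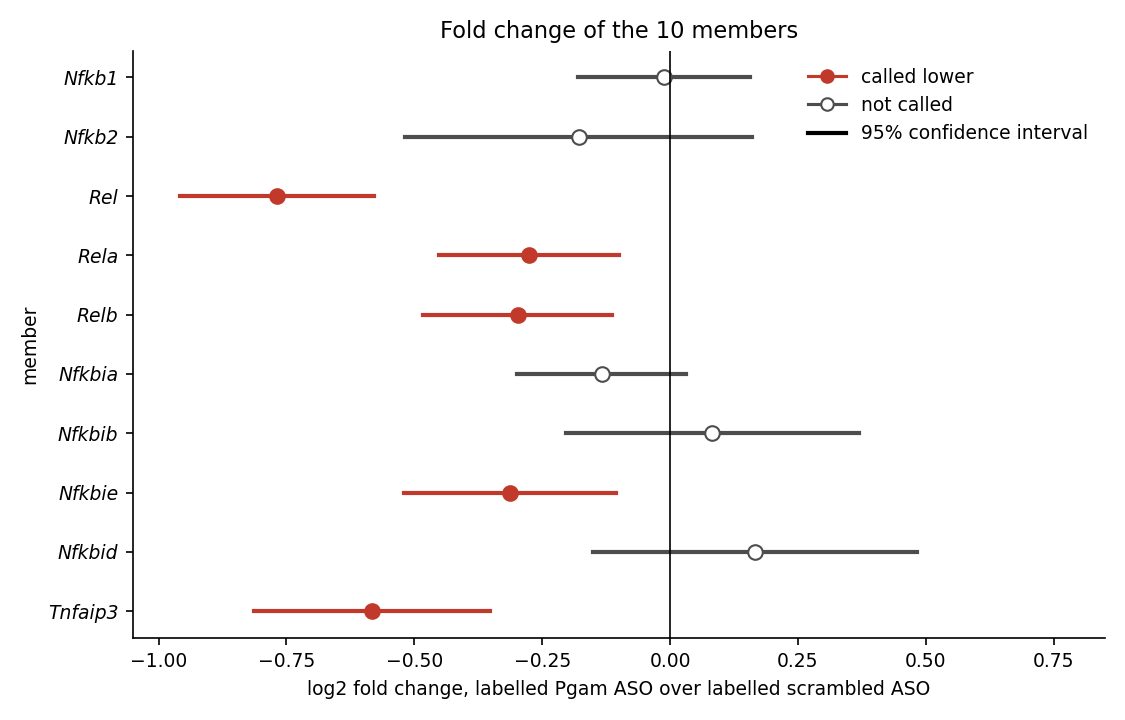
Log2 fold change of each member (x axis, labelled *Pgam* ASO over labelled scrambled ASO) with its 95% confidence interval as a bar, filled red where called lower and open where not called. *Rel* at -0.77 and *Tnfaip3* at -0.58 lie farthest from 0, and *Rela*, *Relb* and *Nfkbie* form a group near -0.3.

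Of the 3 cytoplasmic inhibitors, 1 was called lower, against 9.15% of all tested genes. *Nfkbia* (ENSMUSG00000021025, chr12:55489410-55492647) encodes IκBα, the inhibitor that is degraded and made again most rapidly after a signal. It had 204, 212 and 212 CPM (labelled scrambled ASO, replicates 1 to 3) and 189, 189 and 194 CPM (labelled *Pgam* ASO). Every library labelled *Pgam* ASO was below every control, yet the difference was small and not called (log2 fold change -0.13, standard error 0.07, edgeR adjusted p = 0.231). Its confidence interval was -0.30 to 0.03.

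*Nfkbie* (ENSMUSG00000023947, chr17:45555703-45563169) encodes IκBε, an inhibitor with slower turnover that binds dimers of c-Rel and p65. Its level was 56.1, 60.1 and 52.0 CPM (labelled scrambled ASO, replicates 1 to 3) and 47.1, 42.5 and 45.7 CPM (labelled *Pgam* ASO). The groups did not overlap, though replicate 3 labelled scrambled ASO and replicate 1 labelled *Pgam* ASO were close. *Nfkbie* fell from 56.0 ± 4.04 to 45.1 ± 2.39 CPM (mean ± SD, n = 3 in each group). The log2 fold change was -0.31 with a standard error of 0.09 (edgeR adjusted p = 0.0451). In leave-one-out fits the log2 fold change ran from -0.36 to -0.26. The edgeR adjusted p for *Nfkbie* was 0.135 without replicate 1 labelled scrambled ASO, 0.124 without replicate 2 labelled scrambled ASO, 0.0905 without replicate 1 labelled *Pgam* ASO, 0.183 without replicate 2 labelled *Pgam* ASO and 0.0636 without replicate 3 labelled *Pgam* ASO.

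*Nfkbib* (ENSMUSG00000030595, chr7:28758251-28767512) encodes IκBβ. Its values were 75.1, 62.4 and 84.7 CPM (labelled scrambled ASO, replicates 1 to 3) and 90.2, 74.3 and 70.6 CPM (labelled *Pgam* ASO). Both groups were wide and overlapped, and no difference was called (log2 fold change 0.08, standard error 0.13, edgeR adjusted p = 0.686). It is uncertain in part, as 14.0% of its 31-base stretches occur in other genes, mainly *Ccer2*, which had at most 7 counts in any library.

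*Nfkbid* (ENSMUSG00000036931, chr7:30421732-30428746) encodes IκBNS, a nuclear IκB protein that binds p50 at its target genes. It had 32.9, 32.5 and 30.9 CPM (labelled scrambled ASO, replicates 1 to 3) and 43.4, 36.3 and 28.4 CPM (labelled *Pgam* ASO). The controls were tight, while the libraries labelled *Pgam* ASO spread on both sides of them, and no difference was called (log2 fold change 0.17, standard error 0.14, edgeR adjusted p = 0.440). The log2 fold change of *Nfkbid* depended on single libraries, running from 0.014 to 0.32 with each left out in turn.

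*Tnfaip3* (ENSMUSG00000019850, chr10:19000910-19015657) encodes A20, a ubiquitin-editing enzyme that NF-κB induces and that dampens signalling to the IκB kinase. Its level was 113, 128 and 104 CPM (labelled scrambled ASO, replicates 1 to 3) and 69.6, 77.5 and 83.1 CPM (labelled *Pgam* ASO). The highest library labelled *Pgam* ASO was replicate 3, still below the lowest control, which was also a replicate 3. *Tnfaip3* fell from 115 ± 12.3 to 76.7 ± 6.79 CPM (mean ± SD, n = 3 in each group), a change of -33.2%. The log2 fold change was -0.58 with a standard error of 0.10 (edgeR adjusted p = 0.00813). The call was lost without replicate 2 labelled *Pgam* ASO, with an edgeR adjusted p of 0.0569, and kept with any other library left out.

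To compare levels between members, CPM was divided by the mean length of each gene's annotated transcripts, in kilobases. On this scale *Nfkb1* was highest in the libraries labelled scrambled ASO, at 241 ± 8.58 CPM per kilobase (SD, n = 3). *Nfkbia* followed at 184 ± 4.32, then *Nfkb2* at 137 ± 20.7 and *Rela* at 103 ± 4.20 CPM per kilobase. *Nfkbib*, *Tnfaip3* and *Relb* had 57.3 ± 8.67, 41.3 ± 4.44 and 32.1 ± 1.68 CPM per kilobase. At the low end *Rel*, *Nfkbie* and *Nfkbid*, with 22.4 ± 0.743, 21.6 ± 1.55 and 19.6 ± 0.632 CPM per kilobase, were neighbours. By this length *Rel* and *Nfkbie* did not differ beyond their spread. By the longest transcript *Rel* had the same value and *Nfkbie* 18.6 ± 1.34 CPM per kilobase (SD, n = 3), without overlap between the genes. In the libraries labelled *Pgam* ASO, *Rel* had 13.1 ± 1.02 CPM per kilobase and was the lowest of the 10 members by mean transcript length. Part of the order depends on the length used, since *Rel* has 1 annotated transcript of 7466 bases and *Rela* 7 with a mean of 1220 (longest 2716). With the longest transcript of each gene in place of the mean, the 5 highest members came in the same order, *Rel* ranked 6 of 10 in the libraries labelled scrambled ASO and *Tnfaip3* 9 of 10.

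**Figure D4:**
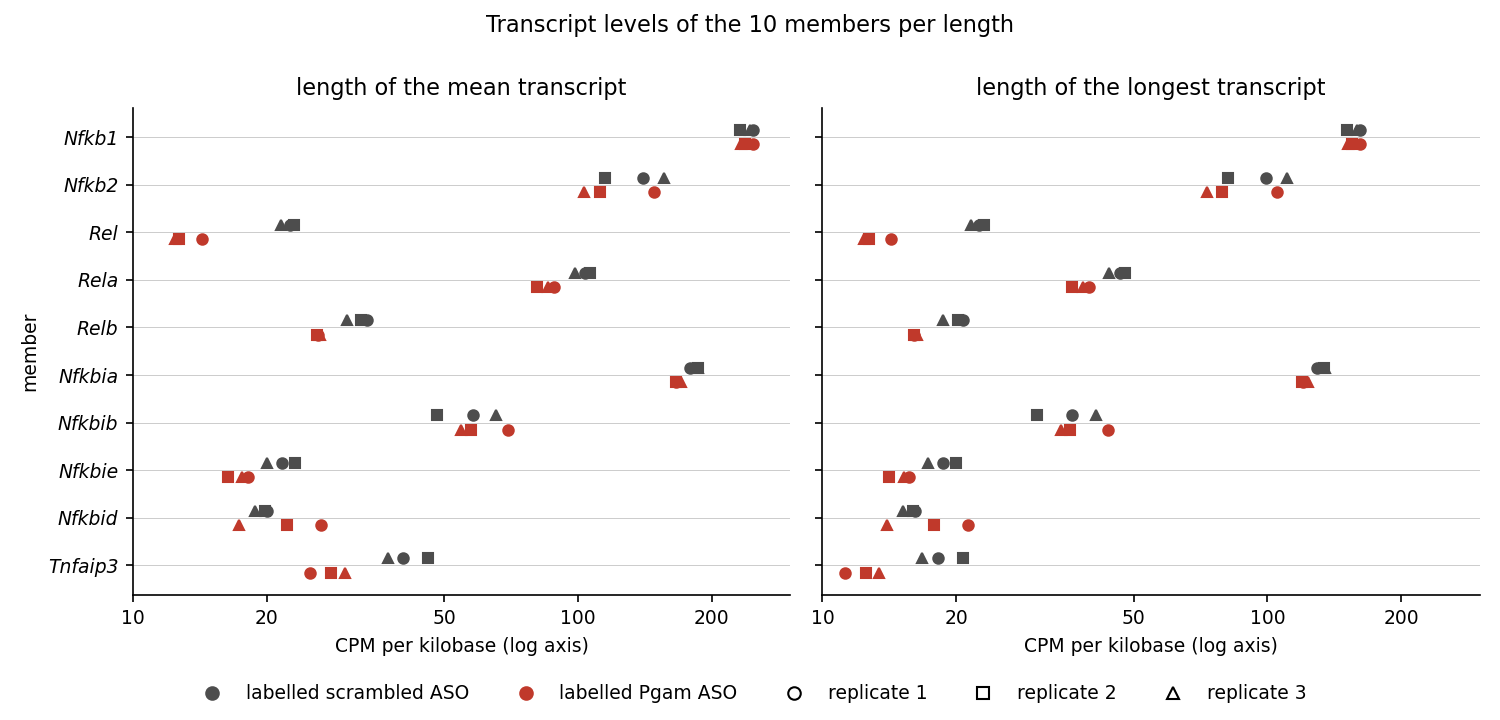
CPM per kilobase (x axis, log scale) of each member in every library, divided by the mean transcript length (left) or the longest transcript (right). *Nfkb1* and *Nfkbia* lie highest on both scales, and *Rel* shifts to the left in the libraries labelled *Pgam* ASO.

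The makeup of the subunit pool was described per library as each gene's share of the summed CPM per kilobase of the 5 subunits. The share of *Rel* was 4.11, 4.53 and 3.92% (labelled scrambled ASO, replicates 1 to 3) and 2.73, 2.71 and 2.70% (labelled *Pgam* ASO). Shares of *Rel* in the libraries labelled *Pgam* ASO were nearly equal and all lower, and those of *Nfkb1* were all higher, with 49.4 ± 2.0% against 45.0 ± 0.561% (SD, n = 3). The 3 other subunits overlapped between the groups. Transcripts of the 3 cytoplasmic inhibitors per transcript of the 5 subunits were 0.472, 0.507 and 0.494 (labelled scrambled ASO, replicates 1 to 3) and 0.485, 0.511 and 0.528 (labelled *Pgam* ASO). These ratios overlapped. For *Nfkbie* per *Rel* transcript, ratios were 0.959, 1.0 and 0.928 (labelled scrambled ASO, replicates 1 to 3) and 1.27, 1.29 and 1.42 (labelled *Pgam* ASO). Here the groups were apart, with the libraries labelled *Pgam* ASO higher, and for *Nfkbia* per *Rela* transcript they overlapped at 1.79 ± 0.0952 and 1.97 ± 0.0888 (SD, n = 3). These values depend on the length used: with the longest transcripts the mean share of *Rel* was 6.55% and 4.25%, and *Nfkbia* per *Rela* transcript 2.87 and 3.17, in the same order of groups. None of these shares and ratios was tested.

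For each called member, the tested gene with the nearest profile over the 6 libraries was found, by the root mean square distance between log2 CPM values centred on each gene's mean. These were *Timp2* for *Rel* (distance 0.0464), *Otud5* for *Rela* (0.0324), *Rnf216* for *Relb* (0.0148), *Sgpl1* for *Nfkbie* (0.0144) and *Snx20* for *Tnfaip3* (0.0288). The median distance of all tested genes ran from 0.284 to 0.455 over these 5 members, and the nearest gene lies below it by the way it was chosen.

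Other genes of the pathway were taken from 5 lists with 44 genes, all of which were tested. In these lists 10 genes were called lower and 0 higher by edgeR, against 9.15% and 8.03% of all tested genes, with 2 higher at an unadjusted p under 0.05 and 0 by DESeq2. The median log2 fold change over the 44 was -0.14. The count called lower was 2 without replicate 2 labelled *Pgam* ASO, 4 without replicate 1 labelled scrambled ASO and 5 without replicate 1 labelled *Pgam* ASO. Called higher was 1 without replicate 3 labelled scrambled ASO, and 1 with no filter on low counts. The list of other nuclear IκB proteins holds *Bcl3*, which binds p50 and p52 homodimers, and *Nfkbiz*, which encodes IκBζ. *Bcl3* had 78.2, 77.6 and 73.4 CPM (labelled scrambled ASO, replicates 1 to 3) and 46.0, 52.5 and 53.0 CPM (labelled *Pgam* ASO). *Nfkbiz* had 49.6, 47.1 and 37.0 CPM (labelled scrambled ASO, replicates 1 to 3) and 25.7, 29.3 and 32.0 CPM (labelled *Pgam* ASO). In both genes the groups did not overlap, and both fell (*Bcl3*, log2 fold change -0.60, standard error 0.09, edgeR adjusted p = 0.00366; *Nfkbiz*, log2 fold change -0.62, standard error 0.13, edgeR adjusted p = 0.0159). The edgeR adjusted p for *Nfkbiz* was 0.0737 without replicate 1 labelled scrambled ASO, 0.0573 without replicate 1 labelled *Pgam* ASO and 0.0827 without replicate 2 labelled *Pgam* ASO.

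Of 7 genes in the list of IκB kinase and related kinases, 2 were called lower (9.15% of all tested genes were), and the median log2 fold change was -0.15. *Ikbke*, which encodes the noncanonical kinase IKKε, had 240.5, 317 and 190.2 CPM (labelled scrambled ASO, replicates 1 to 3) and 102, 115 and 155 CPM (labelled *Pgam* ASO). Controls spread widely, with replicate 2 the highest, but all lay above the other group. *Ikbke* fell from 249 ± 64.0 to 124 ± 27.4 CPM (mean ± SD, n = 3 in each group). The log2 fold change was -1.01 with a standard error of 0.21 (edgeR adjusted p = 0.0215), and the adjusted p was 0.0637 without replicate 1 labelled scrambled ASO, 0.0554 without replicate 1 labelled *Pgam* ASO and 0.0889 without replicate 2 labelled *Pgam* ASO. *Tank*, an adaptor of that kinase, was the other gene called (log2 fold change -0.30, edgeR adjusted p = 0.0325), with an adjusted p of 0.122 without replicate 1 labelled scrambled ASO, 0.0741 without replicate 2 labelled scrambled ASO, 0.115 without replicate 1 labelled *Pgam* ASO and 0.115 without replicate 2 labelled *Pgam* ASO, and 0.0518 with no filter on low counts. The other 5 genes were not called, among them the core kinase genes *Chuk*, *Ikbkb* and *Ikbkg*, named after their values were seen, with log2 fold changes of 0.19, -0.15 and -0.23. In the antigen receptor branch, which links the T cell receptor to the IκB kinase, edgeR and DESeq2 called 0 of 10 genes in either direction. Of all tested genes, edgeR called 9.15% lower and 8.03% higher. In this branch 3 genes were lower at an unadjusted edgeR p under 0.05, a rule for which no share of all tested genes is given. The log2 fold changes of the 10 ran from -0.33 to 0.14. The count called lower in this branch was 2 without replicate 3 labelled scrambled ASO and 1 without replicate 3 labelled *Pgam* ASO, and 1 with no filter on low counts.

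The TNF receptor branch had 3 of 11 genes called lower, against 9.15% of all tested genes, and a median log2 fold change of -0.13. *Traf1*, an adaptor that NF-κB induces, had 272, 287 and 264 CPM (labelled scrambled ASO, replicates 1 to 3) and 189, 171 and 178 CPM (labelled *Pgam* ASO). *Birc2*, which encodes the ubiquitin ligase cIAP1, had 99.8, 121 and 91.4 CPM (labelled scrambled ASO, replicates 1 to 3) and 53.8, 58.0 and 74.9 CPM (labelled *Pgam* ASO). Neither gene's groups overlapped, and the *Traf1* libraries were the tighter of the pair. *Traf1* fell (log2 fold change -0.61, standard error 0.08, edgeR adjusted p = 0.00211), a call kept with each library left out. *Birc2* fell too (log2 fold change -0.74, standard error 0.14, edgeR adjusted p = 0.0107), with an adjusted p of 0.0730 without replicate 2 labelled *Pgam* ASO. *Birc3*, its paralog, was called as well (log2 fold change -0.28, edgeR adjusted p = 0.0331) but its adjusted p was 0.139 without replicate 1 labelled scrambled ASO, 0.0908 without replicate 1 labelled *Pgam* ASO, 0.125 without replicate 2 labelled *Pgam* ASO and 0.0675 without replicate 3 labelled *Pgam* ASO, and 0.0584 with no filter on low counts. It is uncertain, as 11.6% of its 31-base stretches occur in other genes. Among 14 other brakes of the pathway, 3 were called lower, again against 9.15% of all tested genes, with a median of -0.05 over the list. They are *Tnip1*, which encodes a partner of A20 (log2 fold change -0.45, edgeR adjusted p = 0.00599), *N4bp1* (-0.43, 0.0116) and *Cyld*, a deubiquitinase (-0.40, 0.0318). With replicate 2 labelled *Pgam* ASO left out, the adjusted p was 0.0571 for *Tnip1*, 0.0592 for *N4bp1* and 0.112 for *Cyld*. Without replicate 1 labelled scrambled ASO it was 0.0654 for *N4bp1* and 0.0926 for *Cyld*, which also missed the threshold without replicate 2 labelled scrambled ASO (0.0746) and replicate 1 labelled *Pgam* ASO (0.110). *Tank*, *Birc3*, *Tnip1*, *N4bp1* and *Cyld* were singled out after their values were seen.

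**Figure D5:**
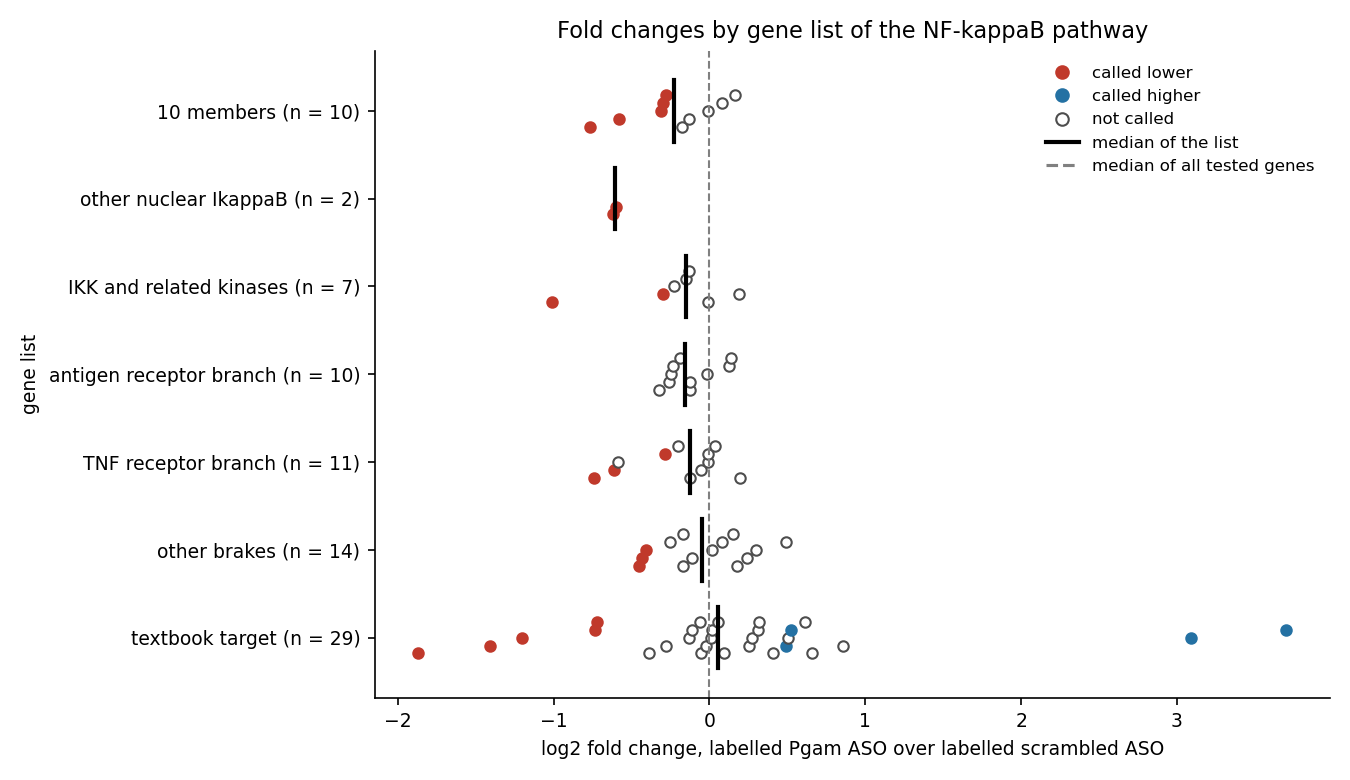
Log2 fold change (x axis) of every gene in the members' list, the 5 pathway lists and the list of textbook targets, with 1 point per gene, red where called lower, blue where called higher and open where not called. Black bars are list medians and the dashed line is the median of all tested genes. The members and the pathway lists hold 0 genes called higher by edgeR, while targets were called in both directions.

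Textbook target genes of NF-κB moved in both directions. Of 29, 5 were called lower and 4 higher, against 9.15% and 8.03% of all tested genes, and the median log2 fold change was 0.05. The count called higher was 7 by DESeq2, 7 with no filter on low counts and 8 at an unadjusted edgeR p under 0.05, and it was 2 without replicate 1 labelled scrambled ASO and 2 without replicate 2 labelled *Pgam* ASO. Leaving out either of these libraries gave 3 called lower. Over all genes, calls in either direction numbered 2565 in the main fit, 3193 by DESeq2 and 3732 of 28512 with no filter. They numbered 620 without replicate 1 labelled scrambled ASO and 391 without replicate 2 labelled *Pgam* ASO. No share of all genes is given at an unadjusted p. The cytokine gene *Il2* had 2.42, 0.864 and 1.30 CPM (labelled scrambled ASO, replicates 1 to 3) and 30.5, 17.3 and 12.1 CPM (labelled *Pgam* ASO). Every library labelled *Pgam* ASO was higher, with replicate 1 the highest (log2 fold change 3.70, standard error 0.46, edgeR adjusted p = 0.00335). *Il2* shares 15.0% of its 31-base stretches, mainly with *Ntan1*, which had more counts (609 to 796 per library) than *Il2*, so its level is uncertain. *Csf2*, which encodes the cytokine GM-CSF, had 5.46, 3.29 and 5.27 CPM (labelled scrambled ASO, replicates 1 to 3) and 56.0, 36.2 and 27.0 CPM (labelled *Pgam* ASO). It too was higher in every library labelled *Pgam* ASO (log2 fold change 3.09, standard error 0.31, edgeR adjusted p = 0.00139). *Il2ra*, the receptor chain CD25, and *Cd40lg* were the others called higher, with log2 fold changes of 0.52 and 0.49 (edgeR adjusted p = 0.0185 and 0.0146). Without replicate 2 labelled *Pgam* ASO these were 0.0967 and 0.0704, without replicate 1 labelled scrambled ASO 0.0725 and 0.0694, and for *Il2ra* without replicate 1 labelled *Pgam* ASO 0.0639.

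The targets called lower were *Ccr7*, *Foxp3*, *Fas*, *Irf1* and *Cd69*. *Ccr7*, a homing receptor of naïve cells, had 802, 819 and 888 CPM (labelled scrambled ASO, replicates 1 to 3) and 202, 212 and 273 CPM (labelled *Pgam* ASO). The groups were far apart, and *Ccr7* fell by 1.87 on the log2 scale (standard error 0.12, edgeR adjusted p = 9.27e-05). *Foxp3*, the factor that marks Tregs and a known target of c-Rel, had 282, 371 and 222 CPM (labelled scrambled ASO, replicates 1 to 3) and 89.7, 109 and 131 CPM (labelled *Pgam* ASO). All 3 libraries labelled *Pgam* ASO were lower (log2 fold change -1.41, standard error 0.20, edgeR adjusted p = 0.00567). The level of *Foxp3* is uncertain, since 26.4% of its 31-base stretches also occur elsewhere, mainly in *Flicr*. *Fas*, a death receptor, had 33.1, 38.7 and 28.1 CPM (labelled scrambled ASO, replicates 1 to 3) and 9.44, 14.3 and 19.6 CPM (labelled *Pgam* ASO). *Irf1*, an interferon response factor, had 44.1, 47.3 and 32.0 CPM (labelled scrambled ASO, replicates 1 to 3) and 24.1, 24.1 and 25.8 CPM (labelled *Pgam* ASO). Neither gene overlapped between the groups, and the log2 fold changes were -1.20 and -0.74 (edgeR adjusted p = 0.0141 and 0.0111). Their calls were lost without replicate 2 labelled *Pgam* ASO (0.0765 and 0.0718) and without replicate 1 labelled scrambled ASO (0.0511 and 0.0548), and that of *Fas* also without replicate 2 labelled scrambled ASO (0.0526). *Cd69*, an early activation marker, fell by 0.72 on the log2 scale, with an edgeR adjusted p of 0.00639. *Il2ra*, *Cd40lg* and *Cd69* were named after their values were seen. The other 20 targets were not called, with log2 fold changes from -0.39 to 0.86. Nearest to the threshold was *Irf4*, named after its values were seen, which was higher without overlap in the libraries labelled *Pgam* ASO (log2 fold change 0.66, edgeR adjusted p = 0.0507). It was called under 5 of 6 alternative settings, and with a library left out its edgeR adjusted p ran from 0.0182 to 0.137, passing the threshold without replicate 3 of either label.

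The makeup of the cultures was examined with marker lists. Over all tested genes 9.15% were called lower and 8.03% higher. Of 8 CD4 T cell markers, all were tested and 2 were called lower, *Cd28* (log2 fold change -0.66) and *Trac* (-0.30), the second lost without replicate 2 labelled *Pgam* ASO (edgeR adjusted p = 0.140), replicate 1 labelled *Pgam* ASO (0.153) and replicates 1 and 2 labelled scrambled ASO (0.126 and 0.0898). Their summed level was 3138, 3369.8 and 2953 CPM in the libraries labelled scrambled ASO and 2503, 2647 and 2779.7 CPM in those labelled *Pgam* ASO, most of all from *Cd4*. By DESeq2, which called 3193 of 14936 tested genes in either direction, 3 of the 8 were called lower. At an unadjusted edgeR p under 0.05, 7 were lower, and no share of all tested genes is given for that rule. Without overlap 7 were lower, a pattern of 19.8% of all tested genes. Every library labelled *Pgam* ASO was below every control in that sum. Of 6 Treg markers, 2 were called lower (*Foxp3* and *Ikzf2*) and 1 higher (*Il2ra*), with 3 lower and 1 higher by DESeq2. A log2 fold change below 0 was found for 5 of the 6 (median -0.40), 4 of them without overlap (19.8% of all tested genes were), while *Il2ra*, the most abundant, set most of their sum, which was 3041, 2899 and 3341 CPM in the libraries labelled scrambled ASO and 3729, 3758 and 3388 CPM in those labelled *Pgam* ASO. *Ikzf2* had an edgeR adjusted p of 0.0484, and 0.139 without replicate 2 labelled *Pgam* ASO, 0.130 without replicate 1 of that label, and 0.126 and 0.124 without replicates 1 and 2 labelled scrambled ASO.

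Markers of other cells were low, apart from *Eomes* in the NK cell list. The 6 B cell markers, 5 of them tested and 0 called by edgeR (1 higher and 1 lower by DESeq2, and the same at an unadjusted edgeR p under 0.05), summed to 9.34, 11.8 and 7.13 CPM in the libraries labelled scrambled ASO and 10.8, 9.5 and 7.99 CPM in those labelled *Pgam* ASO, with *Cd79a* the most abundant. The 9 myeloid and dendritic cell markers, of which 2 were tested and 0 called by edgeR, by DESeq2 or at an unadjusted p under 0.05, summed to 4.05, 4.16 and 2.66 CPM in the libraries labelled scrambled ASO and 3.91, 3.59 and 4.26 CPM in those labelled *Pgam* ASO. *Lyz2* was the most abundant of them, and *Clec9a* was at 0 in every library. Of 2 CD8 T cell markers, *Cd8a* was called higher (log2 fold change 1.12, edgeR adjusted p = 0.0286), and the more abundant *Cd8b1* was not. Without replicate 1 labelled scrambled ASO and without replicate 1 labelled *Pgam* ASO, the adjusted p of *Cd8a* was 0.0989 and 0.10. Their sum was 11.3, 13.5 and 10.8 CPM in the libraries labelled scrambled ASO and 14.6, 10.9 and 15.7 CPM in those labelled *Pgam* ASO. The 4 NK cell markers summed to 52.6, 32.2 and 55.0 CPM in the libraries labelled scrambled ASO and 28.3, 26.9 and 24.1 CPM in those labelled *Pgam* ASO, nearly all from *Eomes*, which activated T cells can also express, while *Klrb1c* and *Klra8* were at 0 in every library. *Eomes* was called lower (log2 fold change -0.82, edgeR adjusted p = 0.0214), but not without replicate 1 labelled scrambled ASO (0.0766) or replicates 1 and 2 labelled *Pgam* ASO (0.0530 and 0.0893). The 5 mast cell and basophil markers, 2 of them tested, with 1 called lower and 0 higher by edgeR (1 lower and 1 higher by DESeq2, and the same at an unadjusted edgeR p under 0.05), summed to 6.36, 7.29 and 7.37 CPM in the libraries labelled scrambled ASO and 5.03, 5.45 and 5.74 CPM in those labelled *Pgam* ASO. Their most abundant gene, *Kit*, was called lower (log2 fold change -1.68, edgeR adjusted p = 0.0142), a call lost without replicate 1 labelled scrambled ASO (0.0506) and replicate 2 labelled *Pgam* ASO (0.0851). *Cpa3*, *Fcer1a* and *Mcpt8* were instead higher without overlap in the libraries labelled *Pgam* ASO, with means of 2.31, 0.372 and 0.665 CPM against 1.07, 0.0360 and 0.0980 CPM. The 4 erythroid markers, 2 of them tested and 0 called by edgeR or DESeq2 (1 lower at an unadjusted p under 0.05), summed to 2.53, 1.67 and 1.55 CPM in the libraries labelled scrambled ASO and 0.745, 1.22 and 1.30 CPM in those labelled *Pgam* ASO, with *Hba-a1* the most abundant. *Hba-a1* overlapped between the groups, with means of 0.614 (labelled scrambled ASO) and 0.573 CPM (labelled *Pgam* ASO). *Klf1* was lower without overlap, at 0.877 and 0.266 CPM (log2 fold change -1.69, edgeR adjusted p = 0.0801). Single markers in these lists were named after their values were seen. *Hba-a1*, *Klra8*, *Lyz2*, *Klrb1c* and *Cd79a* share 75.5%, 55.0%, 32.8%, 21.2% and 12.2% of their 31-base stretches with other genes and are uncertain. In the libraries labelled *Pgam* ASO, where *Rel* and *Tnfaip3* were lower, the sums for CD4 T cell, NK cell, mast cell and erythroid markers were lower without overlap. The mast cell sum was lower through *Kit* and the Treg sum higher through *Il2ra*, against the direction of most other genes in each of those lists. Their part in the results on the NF-κB genes was not tested.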

How the data were processed

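RNA-seq libraries of unsorted cultured mouse T cells were compared, 3 labelled scrambled ASO with 3 labelled *Pgam* ASO. The authors deposited 1 table of Kallisto estimated counts per gene, which held whole numbers and was used as deposited. The submitters' processing notes name GRCm38 and Kallisto, and the Kallisto version is not given in the sources used here. Genes were tested with edgeR 4.0.16 in R 4.3.3: filterByExpr, TMM normalization, the robust quasi-likelihood test, and p-values adjusted by the Benjamini-Hochberg method across the whole tested table, with a threshold of 0.05. Alternatives were DESeq2 1.42.0 (also the authors' tool), other scalings, other filters on low counts, the replicate number as a block and leaving out each library. The shares of 9.15% lower and 8.03% higher hold for the main edgeR fit alone. Over all genes DESeq2 called 3193 in either direction, against 2565 in the main fit. For counts at an unadjusted p, no share of all tested genes is given. The edgeR and DESeq2 fits were tested on simulated counts with known fold changes, and the other steps were not. Within each group, no library repeated another within sampling noise in a chi-square check of counts. Genes were located, and their transcript lengths and shared 31-base stretches taken, from GENCODE M21. Promoter sequences came from RefSeq on GRCm38.p6.

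The members and lists were chosen with earlier results of these data known. Every member was described. From the other lists, genes were named that were called, had groups without overlap and had a log2 fold change of at least 0.5 in size, up to 6 per list by size, together with every gene of a pathway list of 5 or fewer and, for each called member, the gene with the nearest profile, beside genes stated as chosen after their values were seen. The counts and medians of the pathway lists include 1 gene that is not reported here by itself. Counting precision follows from 15860476 to 18032805 counts per library.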

Additional observations from a re-analysis of the deposited data

How the results depend on the processing

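With all 6 libraries 2565 genes were called, against 1235 with replicate number as a block and 391 to 3484 with 1 library left out. The direction and call of *Rel* held in every fit run. Members called lower numbered 5, 2 with no filter on low counts, 2 with the replicate block and 1 to 5 with 1 library left out, while members called higher were 0 throughout by edgeR and DESeq2. With 1 library left out, pathway genes in 5 lists called lower ranged from 2 to 14 (10 with all) and called higher from 0 to 1 (0 with all, 1 with no filter). By list, the counts called lower ranged from 1 to 2 for other nuclear IκB proteins, 0 to 2 for IκB kinases (1 with no filter, 1 with the block), 0 to 2 for the antigen receptor branch (1 with no filter), 1 to 4 for the TNF receptor branch and 0 to 4 for other brakes, in which 0 to 1 were called higher (1 with no filter). Targets called lower ranged from 3 to 6, and called higher from 2 to 6, with 7 by DESeq2 and 7 with no filter. In each case the cause was not tested.

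The sign of the log2 fold change reversed for *Nfkb1* without scrambled ASO replicate 1 (0.0034), scrambled ASO replicate 3 (0.0015) and *Pgam* ASO replicate 3 (0.014), and for *Nfkbib* without scrambled ASO replicate 2 (-0.029) and *Pgam* ASO replicate 1 (-0.028). Over all such fits it ran from -0.042 to 0.014 for *Nfkb1* and from -0.029 to 0.19 for *Nfkbib*. Neither gene was called in any of these fits, and the cause was not tested.

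Deviations from the group means correlated across genes at 0.0534, -0.0340 and -0.237 between libraries of equal number. Between libraries of unequal number the correlations ran from -0.254 to 0.280. Deviations within a group are tied to each other, so these values cannot decide whether libraries of equal number share an animal. In the replicate block fit the adjusted p was 0.106 for *Rela*, 0.0947 for *Relb*, 0.106 for *Nfkbie*, 0.0918 for *Birc3*, 0.0867 for *Tank*, 0.0634 for *Cyld*, 0.10 for *Trac*, 0.0745 for *Ikzf2* and 0.0699 for *Cd8a*. The difference in inhibitor transcripts per subunit transcript, 0.0170, was 0.0172 with the longest transcript and 0.00692 to 0.0288 with 1 library left out.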
